A study of Mus musculus with 28 samples.

Results

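Secreted liver proteins that carry hormones or give rise to one were followed across feeding states: Serpina6, Ttr, Igfals and Agt. They were taken as every spot that carried one of these symbols in the platform's probe annotation, which gave 4 of 4799 named genes and 8 of 16416 spots. Serpina6 has Entrez gene number 12401, Ttr 22139, Igfals 16005 and Agt 11606, and each was measured by 2 spots. The genes were selected on these same log2 ratios, Serpina6 and Ttr on those of fasted over control livers and Agt on those of high-fat over control livers; what put Igfals among them is not recorded. Their diet ratios are therefore given as a description, with standard errors but no p.

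Serpina6 encodes corticosteroid-binding globulin, the serpin that holds most circulating glucocorticoid in an inactive, bound form. Ttr encodes transthyretin, which carries thyroxine and, together with retinol-binding protein, vitamin A. Igfals encodes the acid-labile subunit, which joins IGF-I and an IGF-binding protein in a long-lived complex in blood and is made in hepatocytes under the control of growth hormone. Agt encodes angiotensinogen, the serpin-family precursor that renin cuts to release angiotensin I. All are products of hepatocytes, and their plasma levels bear on how much hormone is bound or can be formed.

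RNA of the livers of 15 C57BL/6 mice, an inbred strain, was hybridised on 28 two-colour arrays, and all mice were 12 to 16 weeks old. The control diet was chow for 2 weeks. The fasted group had the same diet followed by 16 hours without food, and the high-fat group received a fat-rich diet for 2 weeks, with 5 animals per group. An array set 2 mice against each other, and a second array repeated the pair with the titles in reverse order, which was read as an exchange of dyes. This made 14 dye swaps: 4 set fasted against control mice, 5 high-fat against control mice and 5 fasted against high-fat mice. No source used here gives the sex.

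Values are log2 ratios, with the liver named later in an array's title taken as the numerator. No source used here states this direction or the log base. The direction is likely, from the title order and the dyes listed for the first array of each swap. The design text speaks of dye swaps, but the channel labels of the second arrays, taken literally, leave the dyes unexchanged. The correlation between the arrays of a swap does not settle it, since it can also hold dye effects. Once turned to the same direction, they correlated across features with r from -0.37 to 0.51, and r was below 0 in 10 of 14 swaps. Serpina6 and Igfals were below 0 on every fasted over control array once turned, but the members were chosen with such ratios known. Every ratio and percentage of a control or high-fat level given here holds for the direction as read. If it were turned, higher would read lower throughout. If the second arrays alone ran the other way than read here, the fasted over control ratios would be 0.22 for Serpina6, 1.38 for Ttr, 0.20 for Igfals and 0.20 for Agt. Fitted values are estimates ± SE from a limma fit over all 14 swaps, and a feature is called when its adjusted p is under 0.05. Direct values are means ± SD over the swaps that set those groups against each other. Spot brightness was not used here, so levels of different genes cannot be compared and signal over background is unknown. The number of swaps limits the precision. In whole liver, fewer cells of a type and less RNA per cell cannot be told apart.

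Promoter windows of 2 genes are shown because Igfals and Agt both had lower ratios in high-fat livers and because Igfals is known to answer growth hormone through the factor STAT5. They come from RefSeq, build GRCm38.p6, run from 250 bases before to 50 bases after a start, and are written 5′ to 3′ on the gene's strand. Capitals mark matches to the motifs searched. The Agt window is chr8:124569657-124569956 on the minus strand, and the Igfals window is chr17:24877981-24878280 on the plus strand.
Agt: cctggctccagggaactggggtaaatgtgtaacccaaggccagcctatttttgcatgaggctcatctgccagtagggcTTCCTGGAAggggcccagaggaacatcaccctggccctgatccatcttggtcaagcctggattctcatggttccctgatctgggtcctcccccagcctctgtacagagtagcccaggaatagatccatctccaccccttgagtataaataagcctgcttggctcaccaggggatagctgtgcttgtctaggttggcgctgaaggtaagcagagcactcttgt
Igfals: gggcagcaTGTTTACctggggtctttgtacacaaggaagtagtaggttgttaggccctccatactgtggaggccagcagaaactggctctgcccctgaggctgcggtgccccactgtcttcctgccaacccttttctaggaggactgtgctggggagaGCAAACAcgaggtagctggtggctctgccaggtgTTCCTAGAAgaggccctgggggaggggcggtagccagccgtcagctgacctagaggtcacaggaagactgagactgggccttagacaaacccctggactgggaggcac
On both strands, 7 motifs were searched: the HNF1 motif GTTAAT, the HNF4 core CAAAGNCCA, the C/EBP motif TTGCNNAA, the FOXA motif TGTTTNC, the STAT5 motif TTCNNNGAA, the glucocorticoid receptor motif AGAACA and the NF-kappaB motif GGGNNTTTCC. The Agt window held 1 match, the STAT5 letters TTCCTGGAA from 172 to 164 bases before the start. This Igfals window held the STAT5 letters TTCCTAGAA from 58 to 50 bases before the start and 2 FOXA matches. Of 3 Igfals windows, the most upstream one also held a STAT5 match and a glucocorticoid receptor match, and the most downstream one held none of the 7 motifs. No match overlapped another. Of 32851 windows of 300 bases, 8.30% held the STAT5 motif, 20.5% the FOXA motif and 19.0% the glucocorticoid receptor motif. These are letter matches, and binding was not tested. Serpina6, which also had lower ratios in high-fat livers, had 0 windows among those searched. No window of Ttr is shown.

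Serpina6 was the lowest of the members in fasted livers. Its log2 ratio was -2.00 for fasted mouse 11 over control mouse 4, -2.03 for fasted mouse 13 over control mouse 5, -0.92 for fasted mouse 14 over control mouse 3 and -1.0 for fasted mouse 15 over control mouse 2. All 4 swaps were below 0, as were those of 10.6% of all 11457 features, and mice 11 and 13 gave the deeper values. The direct mean was -1.49 ± 0.61 (SD, n = 4) and the fitted ratio -1.22 ± 0.18, or 42.9% of the control level. Fasted livers were also lower than high-fat livers, at -1.27 for mouse 11 over mouse 9, -0.35 for 12 over 6, -0.81 for 13 over 8, -0.10 for 14 over 7 and -0.36 for 15 over 10. The fitted ratio was -0.77 ± 0.17, or 58.4% of the high-fat level. All 5 were below 0, as were those of 9.02% of features, and mice 11 and 13 again gave the deepest values.

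High-fat livers differed less from controls in Serpina6. The ratios were -0.03 for high-fat mouse 6 over control mouse 1, -0.19 for 7 over 5, -0.33 for 8 over 4, -0.09 for 9 over 2 and -0.60 for 10 over 3. All 5 lay below 0, as did those of 3.72% of features, with a direct mean of -0.25 ± 0.22 (SD, n = 5). The fitted ratio was -0.45 ± 0.17 and was not called.

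Ttr was lower in fasted livers in all 4 swaps with controls. Its ratios were -0.64 for mouse 11 over 4, -1.03 for 13 over 5, -0.67 for 14 over 3 and -1.09 for 15 over 2. The direct mean was -0.86 ± 0.24 (SD, n = 4) and the fitted ratio -0.74 ± 0.13, or 59.9% of the control level. Against high-fat livers the ratios were -0.41 for 11 over 9, -0.31 for 12 over 6, -1.17 for 13 over 8, -0.21 for 14 over 7 and -0.17 for 15 over 10. All 5 were below 0, and mouse 13 stood apart. The fitted ratio was -0.54 ± 0.12. High-fat and control livers overlapped around 0: 0.14 for 6 over 1, -0.29 for 7 over 5, -0.36 for 8 over 4, 0.16 for 9 over 2 and -0.24 for 10 over 3, with a fitted ratio of -0.20 ± 0.12.

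Igfals was lower than in controls in both other groups. The fasted ratios were -0.95 for mouse 11 over 4, -1.26 for 13 over 5, -0.46 for 14 over 3 and -0.96 for 15 over 2. The direct mean was -0.91 ± 0.33 (SD, n = 4) and the fitted ratio -0.75 ± 0.11, or 59.4% of the control level. The high-fat ratios were -0.33 for 6 over 1, -0.20 for 7 over 5, -0.61 for 8 over 4, -0.22 for 9 over 2 and -0.22 for 10 over 3. All 5 were below 0, and the fitted ratio was -0.43 ± 0.11, which was not called, although it was with all arrays scaled to the same spread. Fasted over high-fat, the ratios were -0.56 for 11 over 9, -0.36 for 13 over 8 and -0.09 for 15 over 10. In the other 2 swaps, 12 over 6 and 14 over 7, the ratio was 0.00, so the fasted and high-fat groups were not separated in those pairs. The fitted ratio there was -0.32 ± 0.11 and was not called.

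Agt had another pattern: it was lower in high-fat livers and close to control in fasted livers. The high-fat ratios were -0.33 for mouse 6 over 1, -0.30 for 7 over 5, -0.64 for 8 over 4, -0.37 for 9 over 2 and -0.65 for 10 over 3. All 5 were below 0, with a direct mean of -0.46 ± 0.17 (SD, n = 5) and a fitted ratio of -0.48 ± 0.09, or 71.9% of the control level. Fasted over control, the ratios were -0.16 for 11 over 4, -0.19 for 13 over 5, -0.21 for 14 over 3 and 0.18 for 15 over 2. They lay on both sides of 0, and the fitted ratio was -0.06 ± 0.10. Fasted over high-fat, they were 0.09 for 11 over 9, 0.81 for 12 over 6, 0.24 for 13 over 8, 0.26 for 14 over 7 and 0.76 for 15 over 10. All 5 were above 0, as were those of 9.59% of features, and the fitted ratio was 0.41 ± 0.09, or 133% of the high-fat level.

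**Figure D1:**
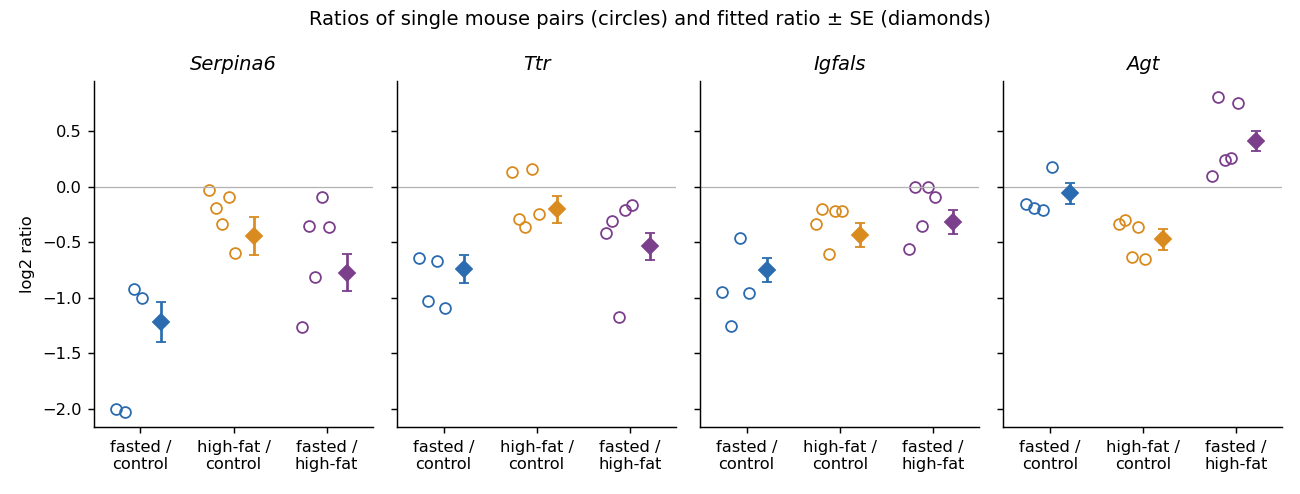
Log2 ratio (vertical axis) of the 4 genes in each contrast; open circles are single mouse pairs, each the mean of 2 dye-swapped arrays, and diamonds with bars are the fitted ratio ± SE. All fasted over control pairs of Serpina6, Ttr and Igfals lie below 0, while Agt lies below 0 in all 5 pairs of high-fat over control and above 0 in all 5 pairs of fasted over high-fat.

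Counted by call, 3 of the 4 members were called lower in fasted than in control livers, where 4.59% of the 11457 features tested were called lower and 3.36% higher. In high-fat over control livers Agt alone was called lower, with 0.323% of features called lower. In fasted over high-fat livers Serpina6 and Ttr were called lower and Agt higher, with 2.77% of features called lower and 2.70% called higher. Nothing is read from these counts, since earlier results of the same contrasts chose the genes. The median fitted ratio of the members was -0.75 for fasted over control, -0.44 for high-fat over control and -0.43 for fasted over high-fat. The medians over all features were 0.01, 0.01 and 0.00. The contrasts share mice, so they are not separate evidence of one another.

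Leaving out 1 mouse at a time left the 3 fasted over control calls in place in all 15 omissions. Serpina6 then ran from -1.35 without fasted mouse 14 to -1.02 without fasted mouse 11, Ttr from -0.80 to -0.62 and Igfals from -0.84 to -0.65. The fasted over high-fat call of Serpina6 was lost without high-fat mouse 9 (-0.68) or fasted mouse 11 (-0.61). That of Ttr was lost without high-fat mouse 8 (-0.45) or fasted mouse 13 (-0.40), and that of Agt without high-fat mouse 10 (0.35). The call of Agt in high-fat over control livers was kept in only 4 of 15 omissions, those of control mice 1 and 2 and fasted mice 12 and 15, although its ratio stayed between -0.52 and -0.42 in all of them. In a limma fit of the direct pairs alone, which uses fewer swaps, Serpina6 in fasted over control livers was the one member call that remained.

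Because most mice were hybridised against both other groups, a level could be given to single animals. Of the 15 mice, 12 are joined by 12 swaps in a closed ring, 4 mice a group, and levels are log2 values relative to the mean of these 12 mice. The remaining mice, control 1, high-fat 6 and fasted 12, were linked only to each other and have no level on this scale. For Serpina6 the levels were 0.34, 0.85, 0.43 and 0.77 in control mice 2, 3, 4 and 5, and 0.39, -0.08, 0.06 and 0.07 in high-fat mice 7, 8, 9 and 10. Fasted mice 11, 13, 14 and 15 stood at -1.38, -1.08, 0.11 and -0.48. The order of the means was control 0.60 ± 0.25 (SD, n = 4), high-fat 0.11 ± 0.20 and fasted -0.71 ± 0.66. All fasted mice were below all controls, but fasted mouse 14 was within the high-fat range.

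For Ttr the order was the same, with means of 0.35 ± 0.35 in control, 0.10 ± 0.46 in high-fat and -0.45 ± 0.45 in fasted mice (SD, n = 4 each). Fasted mouse 11, at 0.17, was above control mice 3 and 5, at 0.04 and 0.06, so that each group overlapped with each other one. Mouse 11 had the lowest Serpina6 level of all 12 mice and the highest Ttr level of the fasted mice. For Igfals the means were 0.41 ± 0.13, -0.02 ± 0.24 and -0.39 ± 0.30, and control mice, from 0.28 to 0.58, were above all high-fat mice, from -0.32 to 0.25, and all fasted mice, from -0.79 to -0.07. High-fat and fasted mice overlapped.

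Agt had its highest mean in control mice, 0.19 ± 0.10, followed by fasted mice, 0.08 ± 0.24, and high-fat mice, -0.28 ± 0.15 (SD, n = 4 each). Control levels ran from 0.05 to 0.27, high-fat levels from -0.42 to -0.09 and fasted levels from -0.16 to 0.42. High-fat mice were thus all below controls, while fasted mouse 13, at -0.16, lay within the high-fat range. In fasted over control mice 2 of 4 members did not overlap, Serpina6 and Igfals, against 2.93% of all features in that direction. In high-fat over control mice these were Igfals and Agt, against 1.34% of features. For fasted and high-fat mice all 4 members overlapped, against 1.97% of features separated with lower and 2.42% with higher fasted levels.

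**Figure D2:**
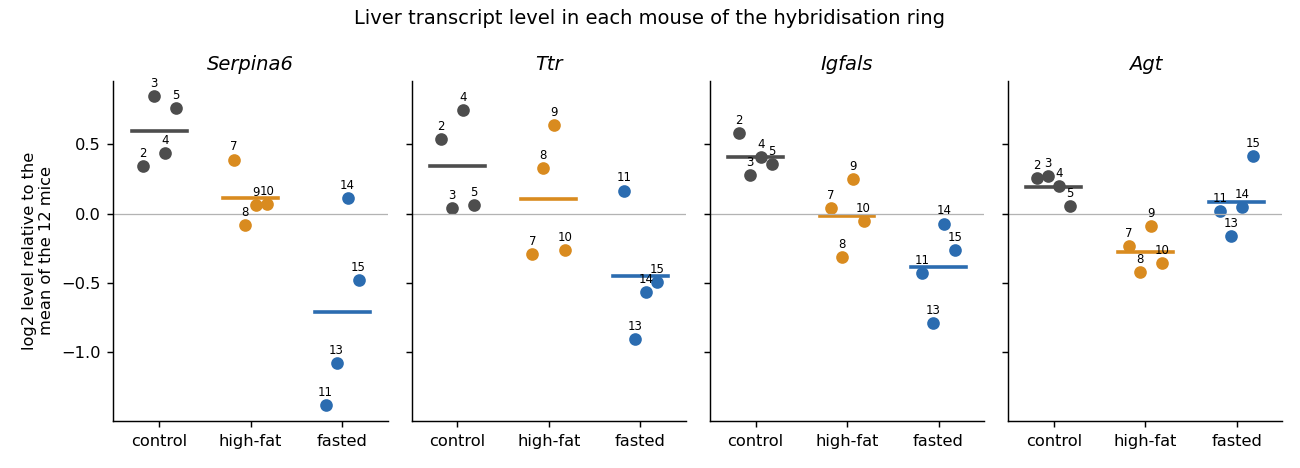
Log2 level of each gene in each of the 12 ring mice relative to their mean (vertical axis), by diet; points carry the mouse number and bars are group means. Fasted mice 11 and 13 are lowest for Serpina6, and the 4 high-fat mice are below the 4 control mice for Agt.

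The ring also tells how well the swaps fit together. Around it, the mean fasted over control ratio minus the high-fat over control and fasted over high-fat means is 0 without measurement error, since every mouse cancels. This difference was -0.55 for Serpina6, with means of -1.49, -0.30 and -0.63, and 2.32% of features had one as large. It was -0.34 for Igfals (13.1% of features as large), -0.19 for Ttr (38.6%) and 0.05 for Agt (79.5%). The SD over all features was 0.23. The direct fasted over control ratios of Serpina6 were thus deeper than its other ratios add up to. The measured drop between fasted and control livers was -1.49 in direct pairs and -1.22 in the fit.

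The reading of the dye exchange mattered most for Ttr. If the dyes were exchanged as read here, a gene's dye effect is the mean of the 2 unturned arrays of a swap, a measure that cancels in the diet ratios and was not used to choose the genes. For Ttr it was 0.93 ± 0.11 towards Cy5 (limma, adjusted p = 2.80e-05), positive in 13 of 14 swaps, and by size it ranked 6 among 4799 named genes. Over all features 20.7% had a called dye effect, and 10.8% had one towards Cy5. Serpina6 (0.15 ± 0.06, adjusted p = 0.0732), Igfals (0.13 ± 0.06, adjusted p = 0.119) and Agt (0.13 ± 0.08, adjusted p = 0.222) did not pass in the same limma test.

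Single arrays of Ttr gave opposite signs. Read as numerator over denominator, 13 of 14 of the first arrays of the swaps were above 0, and all 14 of the second arrays were below 0. In fasted over control livers the first arrays ran from 0.06 to 0.68 and the second from -2.52 to -1.73. If the dyes were exchanged as read here, the swap mean of Ttr rests on the cancelling of a dye effect larger than the diet ratio itself. If they were not, diet and dye cannot be told apart in it. With all arrays scaled to the same spread, its fasted over control ratio was -0.37 and not called. The first arrays alone gave fitted Ttr ratios of 0.64 for fasted over control and 0.68 for high-fat over control, and the second alone gave -2.12 and -1.09. Directly hybridised fasted over high-fat pairs had means of 0.16 on the first and -1.07 on the second arrays. The dye effect was not the same in all swaps: it ran from 0.72 to 1.43 in 11 swaps and was 0.35, -0.08 and 0.25 in those of fasted 12 with high-fat 6, fasted 14 with high-fat 7 and fasted 15 with high-fat 10. These are also the 3 pairs of fasted over high-fat livers with the Ttr ratios nearest to 0. The other members had dye effects below 0 in the same 3 swaps. In that order they were -0.012, -0.20 and -0.00027 for Serpina6 and -0.11, -0.13 and -0.082 for Igfals. For Agt they were -0.21, -0.33 and -0.23. Over all 14 swaps these genes had positive dye effects in 11, 10 and 10. Agt also had its 3 highest fasted over high-fat ratios in these pairs. The part of the dye in the Ttr and Agt ratios was not tested.

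Both arrays of a swap had the same sign in 11 of 14 swaps for Serpina6, 12 for Igfals, 8 for Agt and 1 for Ttr. For Serpina6 all 8 arrays of fasted over control livers were below 0, from -1.78 to -0.73 on the first arrays and from -2.31 to -1.11 on the second. Igfals was likewise below 0 on all 8, from -0.94 to -0.30 and from -1.57 to -0.63. For Agt in high-fat over control livers the first arrays ran from -0.61 to 0.09 and the second from -0.98 to -0.23. The 2 spots of a gene gave like values, with r over the 14 swaps of 0.948 for Serpina6, 0.932 for Ttr, 0.920 for Igfals and 0.994 for Agt. These spots share the arrays and the RNA, so they speak only of the spots.

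**Figure D3:**
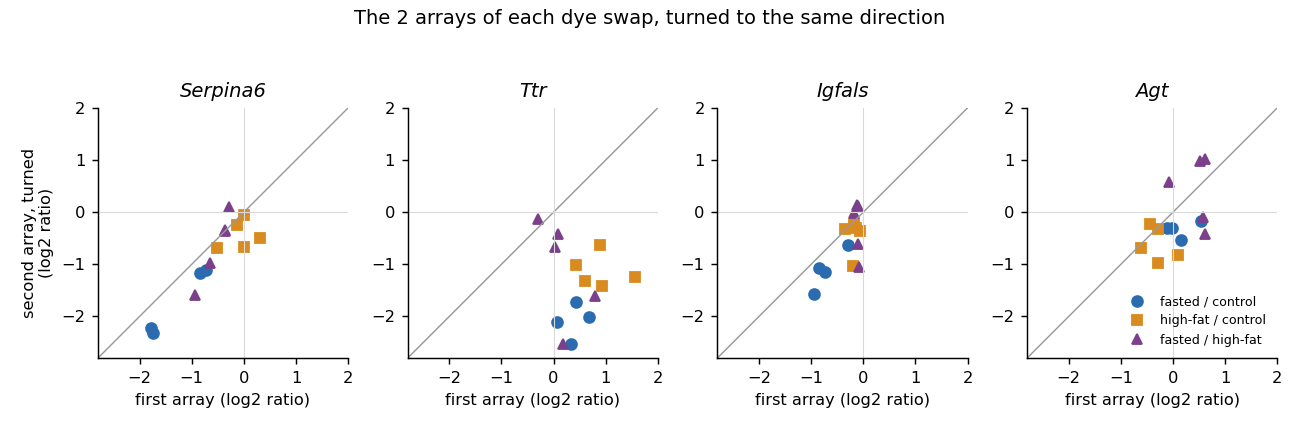
Log2 ratio on the first array (horizontal axis) and on the second array (vertical axis) of each of the 14 dye swaps, both turned to numerator over denominator; the line marks equal values. Ttr lies far below the line, with 13 of 14 first arrays above 0 and all 14 second arrays below 0, while the other genes lie nearer to it.

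Across the 14 swaps, Serpina6 and Igfals varied together (r = 0.84), Serpina6 and Ttr less (r = 0.69) and Ttr and Igfals likewise (r = 0.65). Agt was little related to them, with r of 0.04 with Serpina6, -0.15 with Ttr and 0.30 with Igfals. These r describe swaps that share mice and diets, as do those that follow. Among all named genes, the closest in pattern to Serpina6 were Cxcl9 (r = 0.936), a chemokine, Tfpi2 (r = 0.904), a protease inhibitor, and Acp5 (r = 0.899), a phosphatase of macrophages and osteoclasts. Those closest to Ttr were Fkbp2 (r = 0.881), Adh4 (r = 0.871), an alcohol dehydrogenase, and Bub3 (r = 0.857). For Igfals they were Pnkd (r = 0.904), Plagl1 (r = 0.899) and Urod (r = 0.874), a heme synthesis enzyme. For Agt they were Cyp3a41a (r = 0.923), Nnmt (r = 0.920), a nicotinamide methyltransferase, and Fetub (r = 0.908), a secreted protein of hepatocytes. Cyp3a41a had a fitted ratio of -3.15 in high-fat over control livers, against -0.48 for Agt, and its probes may bind related Cyp3a transcripts.

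**Figure D4:**
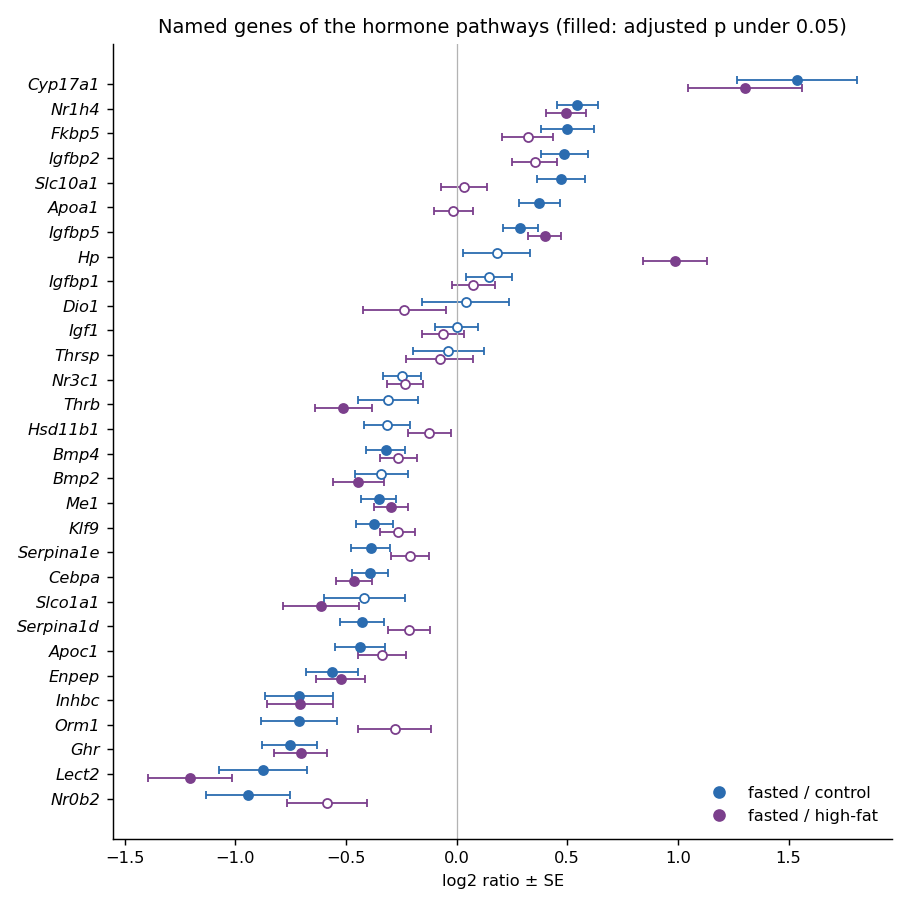
Fitted log2 ratio ± SE (horizontal axis) of the 30 named genes of the hormone pathways in fasted over control (blue) and fasted over high-fat livers (purple), ordered by the former; filled points passed an adjusted p of 0.05. Cyp17a1 is highest at 1.54 and Nr0b2 lowest at -0.94 in fasted over control livers.

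Other genes around these hormones were taken from 8 lists with 187 genes, of which 100 besides the members were measured. In fasted over control livers 20 of the 100 were called, beside 7.95% of all features. In high-fat over control livers it was 1, beside 0.349%, and in fasted over high-fat livers 13, beside 5.46%. The lists were drawn up with earlier results known, and no test of the lists was made. A gene that did not pass is not thereby shown to be unchanged. For fasted over control, unadjusted limma p was under 0.05 for 7 of 11 steroid, 7 of 14 thyroid and 7 of 18 IGF genes. The same held for 1 of 10 angiotensin, 4 of 14 carrier and 6 of 19 hormone genes. It also held for 2 of 3 serpins and 9 of 17 transcription factors. These counts include the called genes, and the share over all features is not given here.

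Of 11 measured genes of glucocorticoid response and steroid metabolism, 2 rose in fasted over control livers and the other 9 did not pass. The median was 0.06 against 0.01 over all features. Cyp17a1, a steroid hydroxylase, rose by 1.54 ± 0.27 over control (limma, adjusted p = 0.00145), at 1.92, 1.66, 0.25 and 3.43 in the swaps of fasted mice 11, 13, 14 and 15. Without fasted mouse 15 its ratio over control was 1.12 and still called. It also rose over high-fat livers, by 1.30 ± 0.26 (limma, adjusted p = 0.00479). Fkbp5, a glucocorticoid-induced chaperone of the glucocorticoid receptor, rose by 0.50 ± 0.12 (limma, adjusted p = 0.0142), a call lost without control mouse 2, 4 or 5 or fasted mouse 11 or 13 (adjusted p up to 0.0940). The receptor itself, Nr3c1, was at -0.25 ± 0.08 (adjusted p = 0.0927), and Hsd11b1, which regenerates active glucocorticoid in the liver, at -0.31 ± 0.10 (adjusted p = 0.0738). Neither passed. In high-fat over control livers 0 of the 11 passed in limma, with 1 at an unadjusted p under 0.05.

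Of 14 measured genes of thyroid hormone and retinol handling, 1 rose and 2 fell in fasted over control livers, with a median of -0.01. Slc10a1, a bile acid transporter that also takes up thyroid hormone sulphates, rose by 0.47 ± 0.11 (limma, adjusted p = 0.0102), a call lost without control mouse 4 or fasted mouse 11 or 14 (adjusted p up to 0.0648). It was at 1.00 on the first arrays alone and at -0.056 on the second. Klf9, a transcription factor induced by thyroid hormone, fell by 0.37 ± 0.08 (limma, adjusted p = 0.00894; 0.0531 without fasted mouse 14). Me1, the malic enzyme and a thyroid hormone target, fell by 0.35 ± 0.08 (limma, adjusted p = 0.00874), a call lost without control mouse 4 or fasted mouse 11 (adjusted p up to 0.0701). Fasted over high-fat, 3 fell: the thyroid hormone receptor Thrb (-0.51 ± 0.13), the organic anion transporter Slco1a1 (-0.61 ± 0.17) and Me1 (-0.30 ± 0.08). Their limma adjusted p were 0.0241, 0.0474 and 0.0262, and each was lost in 10 or 11 of 15 omissions of a mouse. Dio1, which activates thyroxine, was at 0.04 ± 0.20 and Thrsp, a lipogenic thyroid hormone target, at -0.04 ± 0.16 in fasted over control livers, and neither passed.

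Of 18 measured genes of the growth hormone and IGF axis, 2 rose and 1 fell in fasted over control livers, with a median of 0.01. The lowest fitted ratio of the 18 was -0.95 there and -0.92 in high-fat over control livers, and neither passed. Ghr, the growth hormone receptor, fell by 0.75 ± 0.13 (limma, adjusted p = 0.000854), at -0.91, -1.0, -0.31 and -1.31 in the swaps of fasted mice 11, 13, 14 and 15. All 4 were below 0, as were those of Igfals in the same pairs. Ghr also fell against high-fat livers, by 0.70 ± 0.12 (limma, adjusted p = 0.00138), and was at -0.05 ± 0.12 in high-fat over control livers (adjusted p = 0.997). Both calls were kept without any single mouse. Igfbp2, a binding protein, rose by 0.49 ± 0.11 (limma, adjusted p = 0.00740; 0.0552 without fasted mouse 11). Igfbp5, which can bind the acid-labile subunit, rose by 0.29 ± 0.08 over control (limma, adjusted p = 0.0305), lost in 9 of 15 omissions, and by 0.40 ± 0.07 over high-fat livers (limma, adjusted p = 0.00309). Igf1 itself was at 0.00 ± 0.10 in fasted over control and at 0.06 ± 0.09 in high-fat over control livers, with 2 of 4 and 3 of 5 swaps below 0, and Igfbp1 was at 0.15 ± 0.10. Neither passed.

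Of 10 measured genes of the renin-angiotensin system, 1 fell and the other 9 did not pass in fasted over control livers, with a median of -0.02. Enpep, the aminopeptidase that turns angiotensin II into angiotensin III, fell by 0.56 ± 0.12 (limma, adjusted p = 0.00484), at -1.01, -0.58, -1.06 and -0.26 in the swaps of fasted mice 11, 13, 14 and 15. Against high-fat livers it fell by 0.52 ± 0.11 (limma, adjusted p = 0.00810; 0.0544 without fasted mouse 11). In high-fat over control livers, where Agt was at -0.48, 0 of the 10 passed in limma, also 0 at an unadjusted p under 0.05, and they ran from -0.04 to 0.10. The genes of renin and of the angiotensin-converting enzymes are not analysed here.

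Of 14 measured genes of other plasma carrier proteins, 1 rose and 2 fell in fasted over control livers. Apoa1, the main protein of high-density lipoprotein, rose by 0.37 ± 0.09 (limma, adjusted p = 0.0172), lost without control mouse 2 or 4 or fasted mouse 11 or 15 (adjusted p up to 0.0829). Orm1, an acute phase glycoprotein with close relatives, fell by 0.71 ± 0.17 (limma, adjusted p = 0.0142; 0.0745 without control mouse 4), and Apoc1 by 0.44 ± 0.11 (limma, adjusted p = 0.0240), lost in 6 omissions. With the first arrays alone Orm1 was at -0.0019 and Apoc1 at 0.053, and with the second alone at -1.42 and -0.92. Hp, the haemoglobin carrier haptoglobin, was the single pathway gene called in high-fat over control livers. It fell by 0.81 ± 0.14 (limma, adjusted p = 0.0199), at -0.68, -0.35, -0.54, -1.66 and -0.84 in the swaps of high-fat mice 6, 7, 8, 9 and 10. The call was lost in 6 omissions (adjusted p up to 0.115). In fasted over high-fat livers Hp rose by 0.99 ± 0.14 (limma, adjusted p = 0.000334), above 0 in all 5 swaps, so that Hp, like Agt, was lower in high-fat livers than in both other groups in direct pairs.

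Of 19 measured genes of other hormone and growth factor precursors, 3 fell and the other 16 did not pass in fasted over control livers. Lect2, a secreted hepatokine, fell by 0.88 ± 0.20 (limma, adjusted p = 0.00963), lost without control mouse 4 or 5 or fasted mouse 11 or 13 (adjusted p up to 0.0745), and by 1.20 ± 0.19 against high-fat livers (limma, adjusted p = 0.000723). Inhbc, an activin subunit of hepatocytes, fell by 0.71 ± 0.16 (limma, adjusted p = 0.00726; 0.0543 without fasted mouse 13). Bmp4 (-0.32 ± 0.09, limma, adjusted p = 0.0299) lost its call in 7 omissions. Fasted over high-fat, Inhbc (-0.71 ± 0.15) and Bmp2 (-0.44 ± 0.12) also fell, at limma adjusted p of 0.00733 and 0.0298, with calls lost in 3 and 9 omissions.

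Among 3 measured clade A serpins, relatives of Serpina6 and Agt, 2 fell in fasted over control livers: Serpina1d (-0.43 ± 0.10, limma, adjusted p = 0.0123) and Serpina1e (-0.39 ± 0.09, limma, adjusted p = 0.0101). They are near-identical copies of the protease inhibitor alpha-1-antitrypsin, so the member measured is uncertain. Their calls were lost in 4 and 2 omissions (adjusted p up to 0.0868 and 0.0669), and their direction turned with the first arrays alone (0.30 and 0.29).

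Of 17 measured liver transcription factors, 1 rose and 2 fell in fasted over control livers, with a median of -0.07. Nr1h4, the bile acid receptor FXR, rose by 0.55 ± 0.09 (limma, adjusted p = 0.00110). Its target Nr0b2, the corepressor SHP, fell by 0.94 ± 0.19 (limma, adjusted p = 0.00409), below 0 in 4 of 4 swaps. Cebpa, a factor of hepatocyte gene expression, fell by 0.39 ± 0.08 (limma, adjusted p = 0.00609), at -0.44, -0.45, -0.58 and -0.53 in the swaps of fasted mice 11, 13, 14 and 15. Against high-fat livers Nr1h4 rose by 0.49 ± 0.09 (limma, adjusted p = 0.00236) and Cebpa fell by 0.46 ± 0.08 (limma, adjusted p = 0.00149). These calls were kept without any single mouse.

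Ratios show neither cell composition nor whether a marker is present, so the labelled tissue was not checked by marker levels. Of 6 measured hepatocyte markers, 1 rose and 1 fell in fasted over control livers, with a median of -0.18. Of 6 measured Kupffer cell markers 4 fell, Cd5l, Clec4f, C1qa and C1qc, with a median of -0.44. Their mean level ran from 0.00 to 0.35 in control, from -0.18 to 0.17 in high-fat and from -0.55 to 0.15 in fasted mice, so the groups overlapped. Of 6 neutrophil markers 1 fell, Camp (log2 ratio -2.14), while the other 5 did not pass and the median of the 6 was -0.0040. Their mean level, from -0.33 to -0.05 in fasted mice, was below that of all control (0.08 to 0.12) and high-fat mice (0.07 to 0.26). That mean includes Camp and was not taken without it, so it does not speak for the other markers. Of 2 stellate cell and fibroblast markers 1 rose, Dcn, and the other did not pass. Their mean level ran from 0.03 to 0.12 in fasted, from -0.16 to 0.13 in high-fat and from -0.20 to 0.02 in control mice. The high-fat range overlapped both others, and the mean was not taken without Dcn. Of 6 endothelial markers 2 fell, and of 3 erythroid markers 2 fell. In fasted over control livers 12 of 38 markers were called, beside 7.95% of all features. In high-fat over control livers 0 of 38 markers on 9 lists passed in limma, beside 0.349% of all features, with 9 at an unadjusted p under 0.05. The part of cell composition in the members' ratios was not tested.

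**Figure D5:**
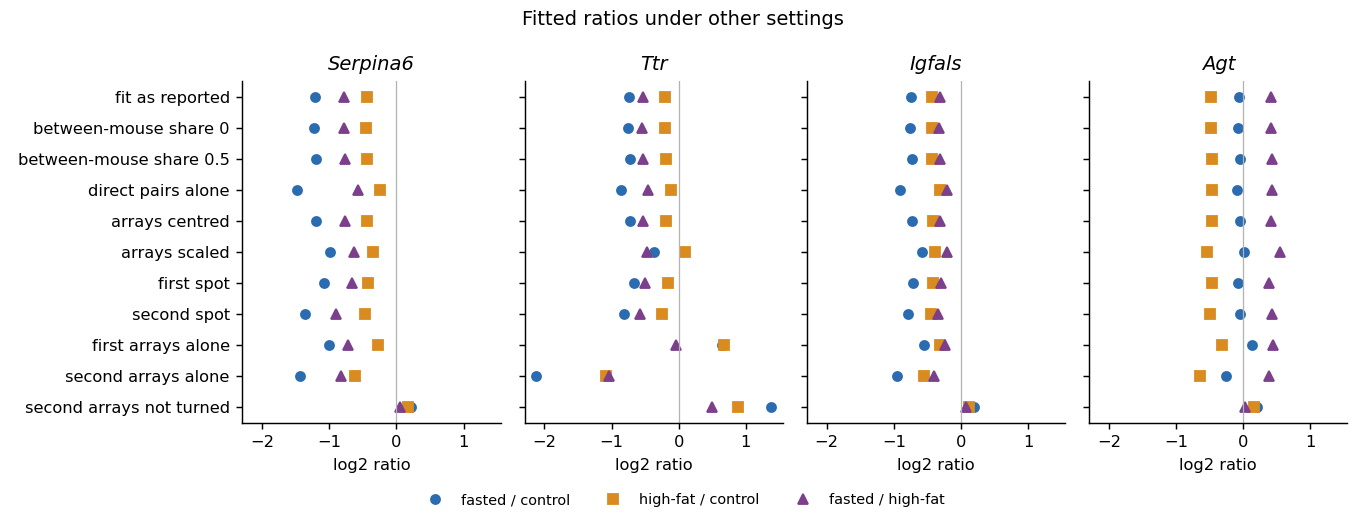
Fitted log2 ratio (horizontal axis) of each gene and contrast under the settings listed at the left. The ratios of Serpina6 and Igfals keep their sign except when the second arrays are not turned, while Ttr changes sign between the first and the second arrays of the swaps in fasted over control and high-fat over control livers.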

How the data were processed

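The deposited table holds, for each spot and array, the authors' processed dye ratio, taken as a log2 ratio. The submitters' processing notes name limma, with no version or role. No source used here gives the background correction, the normalization or any spot filter. Array medians ran from -0.23 to 0.35 and standard deviations from 0.29 to 1.26.

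Spots of a gene were averaged, and 6658 spots without a symbol were tested singly, giving 11457 features. The 2 arrays of a swap were turned alike and averaged as 1 replicate. The 14 swaps were fitted by generalised least squares with a mouse effect (share of variance between mice 18.0%, a trimmed mean over features) and moderated with limma 3.58.1 in R 4.3.3 (12 residual and 4.51 prior degrees of freedom), with Benjamini-Hochberg adjustment over all features and a threshold of 0.05. The fit was run on data simulated from its own model, with the same spread in all swaps and no dye effects. That run therefore does not test the model against these data. Each mouse number is a separate animal, per the labels.

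The members, gene lists and tests were chosen with earlier results of these data known. Named were all members, from each list the genes past the threshold (at most 6, by moderated t), 9 of 18 landmark genes that were measured, and the 3 genes nearest in pattern to each member. Alternatives are given at the end. Symbols were matched to RefSeq by Entrez number.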

Additional observations from a re-analysis of the deposited data

Results flagged for a closer look

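Of the swap ratios, 2 stood far from the other pairs of their contrast, of 24 groups of pairs or mice examined, where chance flags about 1 in 20 groups. For Ttr in fasted over high-fat livers, fasted mouse 13 over high-fat mouse 8 was at -1.17, while the other 4 pairs lay between -0.41 and -0.17. For Agt in fasted over control livers, fasted mouse 15 over control mouse 2 was at 0.18, while the other 3 pairs lay between -0.21 and -0.16. The second array of that pair had the widest spread of all 28 (SD 1.26, against 0.84 for the next). Agt was at -0.18 on it, against -0.54 to -0.30 on the second arrays of the other pairs. On the first array it was at 0.53, against -0.12 to 0.15. Ttr, Cyp17a1, Ghr, Orm1, Lect2 and Inhbc were among the genes with their largest fasted over control ratio, by size, in that swap. Serpina6 and Igfals had theirs in the swap of fasted mouse 13.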

How the results depend on the processing

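With each array centred on its median, other shares of variance between mice (0 or 0.5) or either spot alone, all 12 member ratios stayed within the spread of their direct pairs. The choice that mattered most was how the second arrays were read. Not turned, they gave Serpina6 0.22, Ttr 1.38, Igfals 0.20 and Agt 0.20 for fasted over control, 0.17, 0.88, 0.12 and 0.17 for high-fat over control, and 0.047, 0.50, 0.075 and 0.033 for fasted over high-fat. Under that reading the pathway genes were at Fkbp5 -0.093, Me1 0.14, Klf9 0.22, Ghr 0.34, Enpep 0.0055, Orm1 0.71, Apoc1 0.49, Lect2 0.23, Inhbc 0.25, Bmp4 0.15, Serpina1e 0.67, Serpina1d 0.73 and Cebpa 0.010 in fasted over control, Hp 0.29 in high-fat over control, and Me1 0.010, Thrb 0.042, Slco1a1 0.056, Ghr 0.081, Lect2 0.10, Inhbc 0.067 and Nr1h4 -0.018 in fasted over high-fat livers. If the dyes were exchanged, this reading keeps a dye effect in the ratio; if they were not, diet and dye cannot be told apart. It called 1996 features for fasted over control and 366 for high-fat over control, but 0 of 11457 (784 at an unadjusted limma p under 0.05) and 0 of 100 pathway genes (8 unadjusted) for fasted over high-fat.

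For Ttr the first arrays gave 0.64, 0.68 and -0.043 and the second -2.12, -1.09 and -1.03 in fasted over control, high-fat over control and fasted over high-fat; Agt in fasted over control was at 0.14 and -0.26. The first arrays alone turned Apoc1 (0.053), Serpina1e (0.29) and Serpina1d (0.30), and the second alone Slc10a1 (-0.056). The first arrays alone called 3630, 646 and 1090 features and 38, 7 and 21 pathway genes in the 3 contrasts; the second alone called 93 and 160 features and 2 and 2 pathway genes in high-fat over control and fasted over high-fat. With arrays scaled to the same spread, Ttr was at -0.37 and no longer called in fasted over control, and at 0.10 in high-fat over control, while Igfals became called lower in high-fat over control. That setting also gave 13 and 3 pathway genes for fasted over control and high-fat over control, 88 features for the latter, dye effects of -0.017 for Serpina6, -0.026 for Igfals and -0.037 for Agt, and a ring difference of -0.26 for Serpina6.

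From direct pairs alone, 114, 22 and 156 features and 1, 0 (13 of 100 at an unadjusted limma p under 0.05) and 2 pathway genes were called; of the members Serpina6 alone was still called, in fasted over control. Fewer swaps enter that fit. The call of Agt in high-fat over control was also lost with a share of 0.5 (19 features called), with the first spot alone, and, chosen after seeing the data, without the swap of fasted 14 and high-fat 7 (24 features). Without the swap of fasted 15 and control 2, also chosen afterwards, 62 features and 2 pathway genes were called there. A share of 0 gave 2 pathway genes and centring 3 in that contrast. Members without overlap of mouse levels went from 2 to 1 with scaling or the first spot alone in fasted over control, from 2 to 1 with centring, scaling or the first spot alone in high-fat over control, and from 0 to 1 with centring or the second spot alone in fasted over high-fat. Leaving out 1 mouse at a time, 515 to 1004 features and 11 to 26 pathway genes were called in fasted over control, 14 to 75 and 0 to 2 in high-fat over control, and 361 to 853 and 8 to 14 in fasted over high-fat. The cause of these shifts was not tested. Every ratio is already a pair of mice on the same arrays, and the fit of direct pairs alone is the analysis of those pairs. Each number in a title is 1 animal and diets share no number, so no further block was fitted.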
